A study of Mus musculus with 13 samples.

Results

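The clustered protocadherins are the genes of the Pcdha, Pcdhb and Pcdhg clusters, and they were taken here as every protein-coding mouse gene whose symbol begins with Pcdha, Pcdhac, Pcdhb, Pcdhga, Pcdhgb or Pcdhgc followed by a number. This rule took 57 of the 52550 genes in the count table. There were 14 alpha genes (12 alternate and 2 C-type), 22 beta genes and 21 gamma genes (12 of gamma A, 6 of gamma B and 3 of C-type). Pcdhgb8, which also bears such a name, is annotated as a polymorphic pseudogene and was left out.

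RNA-seq was performed on cells enriched for retinal ganglion cells (RGCs), the neurons whose axons form the optic nerve. The enrichment was by fluorescence-activated sorting of Thy1.2 positive cells from dissociated mouse retina. The development libraries came from wild type mice at postnatal day 1 (P1, 3 libraries), P14 (3) and P21 (2). The injury libraries came from P42 mice of the Kdm6a (UTX) floxed line 3 days after optic nerve crush, which had received adeno-associated virus of serotype 2 in the eye, encoding Cre recombinase (AAV2-Cre, Kdm6a knockout, 2 libraries) or GFP (AAV2-GFP, 3). The crush, the virus and the age were thus shared by both injury groups and absent from the development groups, and these factors and the dataset cannot be told apart. The promoter of the virus and the number of animals per library are not given in the sources used here, so the p-values measure the spread between these libraries, which the study calls biological replicates.

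Clustered protocadherins are cell surface adhesion proteins of the cadherin family that bind like with like between cells. A neuron transcribes a small and largely random choice of the alternate alpha, beta and gamma genes, each from its own promoter under the control of CTCF and cohesin, whereas the C-type genes at the end of the alpha and gamma clusters are regulated differently and are used more widely. The resulting combination works as a cell surface label by which a neuron tells its own branches from those of others, and in the retina the gamma genes are known for spacing the dendrites of starburst amacrine cells and for the survival of neurons.

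All 57 genes lie on the plus strand of chromosome 18 (GRCm38), the alpha cluster at chr18:36930184-37187661, the beta cluster at chr18:37264938-37524479 and the gamma cluster at chr18:37661793-37841873. Each alpha and gamma gene has its own variable exon, which codes for the extracellular part, and joins it to constant exons that the cluster shares and that code for the end of the cytoplasmic tail. Beta genes have no constant exons. In the GENCODE M21 annotation, between 48.6% and 93.0% of the exon bases of an alpha gene (median 53.6%) and between 31.5% and 100% of those of a gamma gene (median 45.2%) were shared with another gene. Reads there overlap several genes and may be uncounted. Levels of different genes are therefore compared per kb of exon found in no other gene, for genes with at least 1000 such bases. This leaves out Pcdhga10, which has 0 such bases because of the antisense gene Gm26672, and Pcdha4, which has 404. Antisense genes also overlap other members, among them Pcdha11, Pcdhb12 and Pcdhgc3, and Gm26672 also overlaps Pcdhgb7, Pcdhga11 and Pcdhga12. With a kit not stated to keep strand, the reads of such pairs cannot be told apart. In 27 of the 56 members with a testable exon, some stretch of 100 bases also occurred in a transcript of another annotated gene, of the family or not.

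Total counts ran from 30357454 to 38812917 in the development libraries and from 13637602 to 16070720 in the injury libraries, and 20890 and 18395 genes passed the low-count filter. Clustered protocadherins took 0.108% ± 0.00158 of all counts at P1 (SD, n = 3), 0.0685% ± 0.00124 at P14 (n = 3) and 0.0767% ± 0.001403 at P21 (n = 2). The summed level of 28 RGC markers ran from 12921 to 14272 CPM (read counts scaled to a common library size with TMM) at P1, from 1831 to 2039.8 CPM at P14, from 857 to 1385 CPM at P21, from 728 to 946 CPM in AAV2-GFP and from 755 to 829.8 CPM in AAV2-Cre. The RGC factor gene Pou4f2 was at 0 in both AAV2-Cre libraries. Of 26 RGC markers tested between AAV2-Cre and AAV2-GFP, 1 was called lower and 0 higher (edgeR, adjusted p under 0.05). Their median log2 fold change was 0.18, with 17 positive and 9 negative values. Of all genes tested, 0.294% were lower and 1.33% higher. The 20 rod markers summed to 1231 to 1322 CPM at P1, 1710.5 to 1935 CPM at P14, 1109.9 to 1157 CPM at P21, 35324 to 45212 CPM in AAV2-GFP and 17249 to 37782 CPM in AAV2-Cre. Müller glia markers (20 genes) summed to 3062 to 7784 CPM at P1, 26522 to 28016 CPM at P14, 48601 to 50086 CPM at P21, 4734 to 7578 CPM in AAV2-GFP and 6867 to 10403 CPM in AAV2-Cre. Microglia and macrophage markers (18 genes) summed to 35.5 to 55.99 CPM at P1, 414 to 432 CPM at P14, 111 to 129 CPM at P21, 8451 to 11490.2 CPM in AAV2-GFP and 11069 to 14293 CPM in AAV2-Cre. The Müller glia sum thus lay above the RGC sum at P14 and P21, and the rod, Müller glia and microglia sums lay above the RGC sum in the injury libraries. Sums of different lists do not give shares of cells, but levels below are of the sorted cells together and not of RGCs alone. Kdm6a, the targeted gene, measured 110.4 and 111.9 CPM in the libraries labelled AAV2-Cre and 115, 96.5 and 119 CPM in AAV2-GFP, a log2 fold change of -0.02 (SE 0.15, adjusted p = 0.963, edgeR). The loxP sites flank a single exon, so counts over the whole gene do not check this deletion, and directions below are of the libraries as labelled. In separate experiments, the study reported lower Kdm6a mRNA by real-time PCR and weaker Kdm6a staining in RGCs after AAV2-Cre.

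The alpha genes fell together between P1 and P14. Its summed level was 273, 265 and 291 CPM in the P1 libraries, 43.1, 43.6 and 47.2 CPM in the P14 libraries and 43.9 and 36.3 CPM in the P21 libraries. The P1 mean was 6.19-fold the P14 mean, and the groups lay far apart. All 14 alpha genes were lower at P14 than at P1 (edgeR quasi-likelihood test, Benjamini-Hochberg adjusted p under 0.05), with a median log2 fold change of -2.46, where 33.6% of all genes tested were lower and 33.6% were higher, with a median of -0.01. No P14 library overlapped a P1 library for any of the 14, and 36% of all genes tested had every P14 library below every P1 library.

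**Figure D1:**
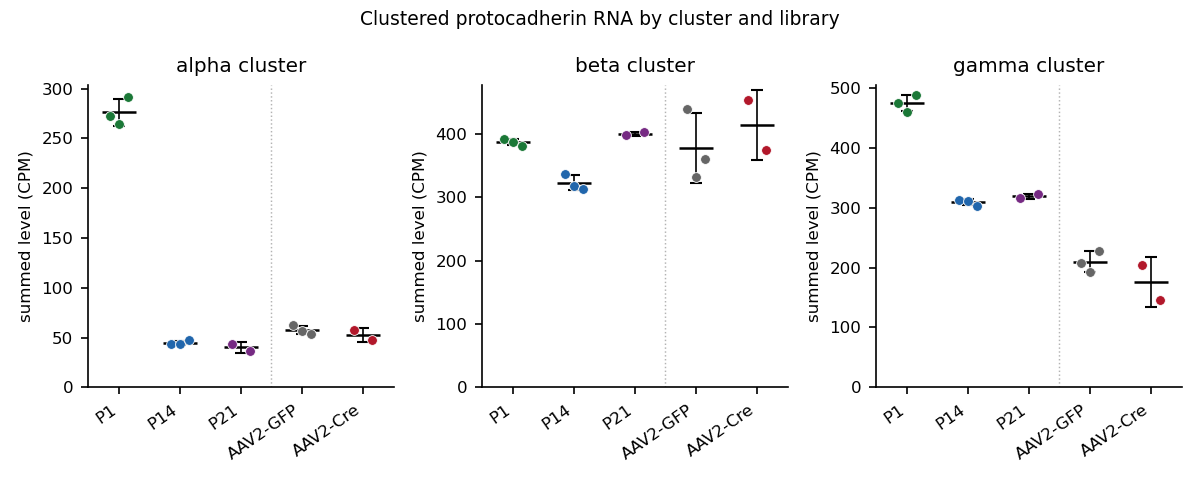
Summed level of the alpha, beta and gamma genes in CPM (y axis, from 0) in each library (points) of the 5 groups (x axis), with the group mean (horizontal bar) and SD (error bar). The dotted line parts the development dataset from the injury dataset. The alpha sum stood at 276 CPM ± 13.6 at P1 and 44.6 CPM ± 2.26 at P14, while the beta sum stayed between 314 and 454 CPM in every library.

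Among the alternate alpha genes, Pcdha2 measured 25.8, 28.5 and 30.7 CPM at P1, 3.53, 4.97 and 4.57 CPM at P14 and 4.43 and 3.12 CPM at P21. Its log2 fold change from P1 to P14 was -2.74 (SE 0.15, adjusted p = 1.82e-07, edgeR), and its P14 and P21 libraries overlapped. Pcdha6 had the largest fall of the group, from 21.3, 19.05 and 18.4 CPM at P1 to 1.73, 2.403 and 2.26 CPM at P14, a log2 fold change of -3.23 (SE 0.27, adjusted p = 3.26e-06). Pcdha9 measured 24.9, 23.2 and 23.05 CPM at P1, 4.53, 3.31 and 4.12 CPM at P14 and 3.96 and 3.47 CPM at P21. Pcdha5 measured 21.7, 17.8 and 19.996 CPM at P1, 3.53, 2.403 and 3.48 CPM at P14 and 2.87 and 2.23 CPM at P21. These 4 genes and Pcdha3 and Pcdha7 were all between 19.6 and 28.4 CPM on average at P1 and between 2.13 and 4.36 CPM at P14.

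Pcdha8 had the smallest fall, from 1.59, 2.71 and 2.47 CPM at P1 to 1.35, 0.812 and 1.17 CPM at P14 (-1.04, SE 0.33, adjusted p = 0.0181, edgeR), and this call was lost without P1 replicate 2 (adjusted p = 0.0684) or P14 replicate 2 (adjusted p = 0.0678). Pcdha10, next in this order, had a log2 fold change of -1.45 (SE 0.22). Pcdha4 rested on 16 to 44 reads per library at P1 and 7 to 10 at P14 (-1.67, SE 0.52, adjusted p = 0.0171), and its call was lost without P1 replicate 3 (adjusted p = 0.0955) or P14 replicate 3 (adjusted p = 0.0602). Pcdha11 rested on 14 to 32 reads at P1 and 1 to 13 at P14 (-1.92, SE 0.73, adjusted p = 0.03902).

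From P14 to P21, Pcdha1 was the single alpha gene called. It measured 6.09, 6.103 and 7.998 CPM at P1, 1.13, 1.53 and 1.47 CPM at P14 and 0.683 and 0.297 CPM at P21, and its fall from P14 to P21 was -1.41 on the log2 scale (SE 0.35, adjusted p = 0.0118, edgeR). Without P21 replicate 2 this call was lost (adjusted p = 0.0745). The other 13 alpha genes did not pass (Pcdha6 did without P21 replicate 1, adjusted p = 0.00749), with log2 fold changes from -0.56 for Pcdha11 to 0.70 for Pcdha4. The comparison of P21 with P14 shares the P14 libraries with the comparison of P14 with P1.

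The C-type alpha genes fell with the alternate ones. Pcdhac2 measured 82.5, 80.6 and 94.5 CPM at P1, 10.3, 13.1 and 13.01 CPM at P14 and 13.5 and 9.92 CPM at P21. Its log2 fold change from P1 to P14 was -2.85 (SE 0.12, adjusted p = 3.72e-08, edgeR), and that from P14 to P21 was 0.00 (95% interval -0.31 to 0.32). Pcdhac2 was the highest alpha gene per unique exon length at P1, P14 and P21, at 28.4, 4.01 and 3.86 CPM per kb. Pcdhac1 measured 14.4, 13.8 and 14.2 CPM at P1, 3.45, 3.64 and 3.18 CPM at P14 and 2.597 and 2.702 CPM at P21, with -2.08 from P1 to P14 (SE 0.11, adjusted p = 1.40e-07). The C-type genes thus kept a like share of the alpha counts, 36.1% ± 0.976 at P1 (SD, n = 3), 34.9% ± 3.26 at P14 (n = 3) and 35.7% ± 1.33 at P21 (n = 2).

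From P1 to P14 the RGC markers fell beside the alpha genes. The alpha sum was 2.05, 2.05 and 2.04 percent of the RGC marker sum in the P1 libraries, 2.35, 2.23 and 2.31 percent in the P14 libraries and 3.17 and 4.23 percent in the P21 libraries. Of the 28 RGC markers, 23 fell and 3 rose from P1 to P14, with a median log2 fold change of -2.73. From P14 to P21 the RGC marker sum fell by 42.2% and the alpha sum by 10.2%, with overlapping alpha libraries. A list of 20 genes of neurons in general (pan-neuronal markers) shares Tubb3, Stmn2, Gap43 and Elavl4 with the RGC list. Its P1 mean sum was 3.13-fold its P14 mean, so it is not a fixed reference across ages. The alpha sum was 1.46, 1.45 and 1.47 percent of the pan-neuronal sum at P1 and 0.736, 0.719 and 0.761 percent at P14. In bulk RNA, fewer cells of a type and less RNA per cell cannot be told apart, and the part of cell makeup in the alpha result was not tested.

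**Figure D2:**
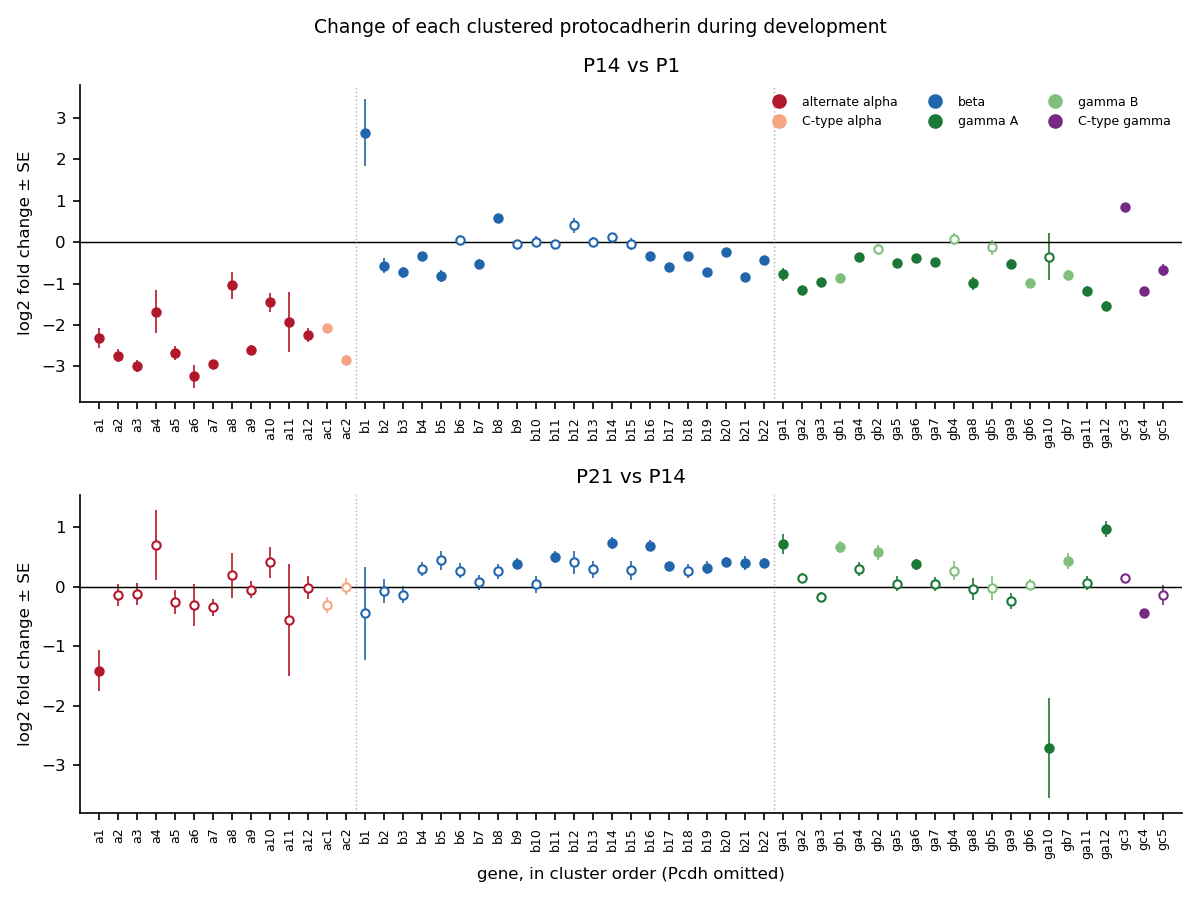
Log2 fold change (y axis) of each of the 57 genes in cluster order (x axis), for P14 against P1 (top) and P21 against P14 (bottom). Points are edgeR estimates with their SE, coloured by gene group, filled where the adjusted p was under 0.05 and open otherwise. In the top panel all alpha genes lie at or below -1.04. Beta genes lie on both sides of 0 (7 above, 15 below, median -0.28), and Pcdhgc3 stands apart from the other gamma genes at 0.84.

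More beta genes fell than rose by P14. Of 22, 12 were lower at P14 than at P1, 2 were higher and 8 did not pass (edgeR), with a median log2 fold change of -0.28. Of all genes tested, 33.6% were lower and 33.6% higher, with a median of -0.01. The beta sum was 393, 388 and 382 CPM at P1, 337, 319 and 314 CPM at P14 and 398 and 403 CPM at P21. The P14 libraries lay below all P1 and P21 libraries. With the fall of the alpha genes, the beta share of all clustered protocadherin counts was 34.1% ± 1.02 at P1 (SD, n = 3), 47.7% ± 0.806 at P14 (n = 3) and 52.8% ± 0.262 at P21 (n = 2).

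Pcdhb17 measured 46.4, 48.7 and 43.6 CPM at P1, 31.2, 32.5 and 30.1 CPM at P14 and 38.7 and 37.8 CPM at P21. It fell by P14 (-0.59, SE 0.06, adjusted p = 2.06e-05, edgeR) and rose by P21 (0.35, SE 0.07, adjusted p = 0.00531), with no overlap of libraries in either step. Pcdhb9, the highest beta gene per unique exon length at every age (10.7 CPM per kb at P1), measured 32.8, 32.8 and 32.6 CPM at P1, 36.4, 28.5 and 31.9 CPM at P14 and 39.8 and 41.6 CPM at P21. Its P1 and P14 libraries overlapped (-0.05, 95% interval -0.25 to 0.15), and its rise from P14 to P21 (0.39, adjusted p = 0.0129) was lost without P21 replicate 2 (adjusted p = 0.0836).

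The largest beta falls to P14 were those of Pcdhb21 and Pcdhb5. Pcdhb21 measured 11.2, 12.2 and 13.3 CPM at P1, 6.74, 6.72 and 7.42 CPM at P14 and 9.32 and 8.37 CPM at P21 (-0.84 from P1 to P14, SE 0.11, adjusted p = 5.77e-05, edgeR). Its rise from P14 to P21 (0.40, adjusted p = 0.0272) was lost without P14 replicate 1, P14 replicate 2 or either P21 library, with adjusted p from 0.0551 to 0.134. Pcdhb3, with 14.2, 15.2 and 14.3 CPM at P1 and 7.25, 10.04 and 9.61 CPM at P14, stayed low at P21 (7.87 and 7.78 CPM), and its net fall from P1 to P21 was -0.87 (SE 0.14, adjusted p = 0.000416). Pcdhb2 measured 7.18, 5.52 and 7.14 CPM at P1, 5.34, 3.8 and 4.47 CPM at P14 and 4.702 and 3.59 CPM at P21, and its fall from P1 to P14 (-0.57, adjusted p = 0.0171) was lost without P1 replicate 1, P14 replicate 2 or P14 replicate 3 (adjusted p from 0.0532 to 0.0668).

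Pcdhb1 and Pcdhb8 were the 2 beta genes called higher at P14. Pcdhb1, the lowest of the cluster, rested on 0 to 8 reads per library at P1 and 18 to 57 at P14 (2.64, SE 0.81, adjusted p = 0.01601, edgeR), and the call was lost without P14 replicate 3 (adjusted p = 0.0727) and with a replicate block (adjusted p = 0.0516). Pcdhb8, with means of 8.56 CPM at P1 and 13.0 CPM at P14, had a log2 fold change of 0.57 (SE 0.12, adjusted p = 0.00159). Pcdhb7 measured 25.9, 20.5 and 21.1 CPM at P1, 15.9, 16.6 and 15.8 CPM at P14 and 15.1 and 17.3 CPM at P21 and was lower at P14 (-0.52, adjusted p = 0.00181).

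From P14 to P21 the beta genes that passed were all higher. Of 22 genes 9 rose and none fell (edgeR), with a median log2 fold change of 0.31, where 14.6% of all genes tested were higher and 19.3% were lower, with a median of -0.0033. Pcdhb14 rose the most, from 24.1, 20.8 and 21.1 CPM at P14 to 34.4 and 36.2 CPM at P21 (0.74, SE 0.10, adjusted p = 0.000559), after 19.9, 21.5 and 18.1 CPM at P1. Pcdhb16 (from 17.3 to 26.9 CPM on average), Pcdhb11, Pcdhb20, Pcdhb22, Pcdhb17, Pcdhb19, Pcdhb9 and Pcdhb21 made up the other 8, with log2 fold changes from 0.32 to 0.69. With all 13 libraries in 1 fit, 2 of the 57 genes were called higher at P21, and the calls of Pcdhb14 (adjusted p = 0.0558), Pcdhb17 (0.154), Pcdhb9 (0.214) and Pcdhb21 (0.453) were lost. Without P21 replicate 2, the count over all 57 genes was 11 higher in place of 15. The genes called higher numbered 3047 and those lower 4024 over the whole table, and 2326 and 4722 when counts were scaled by library size alone, under which 12 clustered protocadherins were higher and 3 lower.

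Pan-neuronal markers went the other way in that step, with 10 of 20 lower, none higher and a median log2 fold change of -0.39, and 15 of 28 RGC markers were lower and 4 higher. The beta sum, as a percent of the pan-neuronal sum, was 2.104, 2.13 and 1.93 at P1, 5.77, 5.26 and 5.06 at P14 and 7.45 and 8.25 at P21. Müller glia markers rose between these ages (8 of 20 higher, none lower). The part of these shifts in the beta result was not tested.

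The gamma cluster fell less than the alpha cluster, and not in all its members. Its sum was 476, 460.4 and 488 CPM at P1, 313, 312 and 303 CPM at P14 and 316 and 322 CPM at P21, with the P1 mean 1.54-fold the P14 mean. Against the pan-neuronal sum the gamma sum rose, with means of 2.51 percent at P1, 5.12 percent at P14 and 6.25 percent at P21. Against the RGC marker sum the means were 3.52, 16.0 and 30.2 percent. The part of cell makeup in the gamma result was not tested. Of 21 gamma genes, 16 were lower at P14 than at P1, Pcdhgc3 was higher and 4 did not pass (edgeR). Gamma A had 11 of 12 lower with a median log2 fold change of -0.66, and gamma B 3 of 6 lower with a median of -0.47. Over all 57 clustered protocadherins, 42 were lower, 3 were higher and 12 did not pass. These counts stand beside 33.6% of all genes tested lower and 33.6% higher.

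Pcdhga3, the gamma A gene with the highest mean CPM, measured 40.6, 37.5 and 45.7 CPM at P1, 21.4, 21.6 and 21.8 CPM at P14 and 19.4 and 17.5 CPM at P21 (-0.96 from P1 to P14, SE 0.08, adjusted p = 2.40e-06, edgeR). Pcdhga2 measured 29.4, 31.4 and 31.99 CPM at P1, 13.8, 15.3 and 13.4 CPM at P14 and 14.8 and 15.2 CPM at P21 (-1.16, adjusted p = 7.03e-07). Both genes had all P14 and P21 libraries below all P1 libraries.

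Pcdhga12 had the largest gamma fall and then the largest rise. It measured 20.6, 21.8 and 26.04 CPM at P1, 7.71, 8.35 and 8.16 CPM at P14 and 13.8 and 16.7 CPM at P21, with -1.53 from P1 to P14 (SE 0.12, adjusted p = 1.78e-06, edgeR) and 0.97 from P14 to P21 (SE 0.13, adjusted p = 0.000476). No library of one age overlapped one of another. Pcdhga1 followed the same course, with 11.1, 10.5 and 10.9 CPM at P1, 8.03, 5.23 and 6.05 CPM at P14 and 10.2 and 10.2 CPM at P21 (0.72 from P14 to P21, adjusted p = 0.00858). Pcdhga6 measured 12.1, 13.6 and 12.7 CPM at P1, 9.81, 10.2 and 9.96 CPM at P14 and 12.9 and 11.99 CPM at P21, and its rise from P14 to P21 (0.38, adjusted p = 0.0166) was lost without P21 replicate 1 (adjusted p = 0.0851) and with a replicate block (adjusted p = 0.0567).

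Pcdhga9 fell by P14 and did not recover, with 13.9, 13.6 and 11.997 CPM at P1, 9.73, 8.18 and 9.96 CPM at P14 and 7.27 and 7.87 CPM at P21 and a net log2 fold change from P1 to P21 of -0.77 (adjusted p = 0.000528, edgeR). Pcdhga10, which has no exon base of its own, was read 9 to 25 times per library at P1, 9 to 20 times at P14 and 1 and 3 times at P21. Its fall from P14 to P21 (-2.71, SE 0.84, adjusted p = 0.0336) lost its call without P14 replicate 2, P14 replicate 3 or either P21 library (adjusted p from 0.0652 to 0.160).

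In gamma B, Pcdhgb6 held the highest level per unique exon length at every age (16.9 CPM per kb at P1) and measured 46.5, 41.4 and 42.4 CPM at P1, 23.2, 22.3 and 21.8 CPM at P14 and 20.8 and 23.4 CPM at P21 (-0.98 from P1 to P14, SE 0.08, adjusted p = 1.96e-06, edgeR). Pcdhgb1 measured 14.4, 14.98 and 16.2 CPM at P1, 8.68, 8.997 and 7.95 CPM at P14 and 13.9 and 12.2 CPM at P21, with a fall (-0.86, adjusted p = 2.42e-05) and then a rise (0.67, adjusted p = 0.00124). Pcdhgb2 had overlapping libraries at P1 and P14 (-0.16, 95% interval -0.41 to 0.10) and rose to 11.6 and 11.8 CPM at P21 from 7.79, 8.77 and 7.95 CPM at P14 (0.58, adjusted p = 0.005995).

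Pcdhgb7 measured 16.9, 18.4 and 17.1 CPM at P1, 10.1, 8.87 and 11.9 CPM at P14 and 12.4 and 14.3 CPM at P21 and fell by P14 (-0.79, adjusted p = 0.000253, edgeR). Its later rise (0.43, adjusted p = 0.0372) was lost without P1 replicate 1, P14 replicate 1, P14 replicate 2 or P21 replicate 2 (adjusted p from 0.0542 to 0.229) and with a replicate block (adjusted p = 0.0635). Pcdhgb4 and Pcdhgb5 passed in no step. Pcdhgb4 measured 7.503, 9.31 and 8.34 CPM at P1, 8.57, 8.704 and 9.71 CPM at P14 and 8.78 and 12.1 CPM at P21, and without P21 replicate 1 it was called higher at P21 than at P14 (adjusted p = 0.0448). Pcdhgb5 measured 11.2, 10.1 and 8.17 CPM at P1, 8.22, 11.1 and 8.39 CPM at P14 and 7.33 and 10.1 CPM at P21, with all 3 ages overlapping.

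The C-type gamma genes parted ways. Pcdhgc3 measured 37.3, 36.5 and 33.9 CPM at P1, 65.8, 67.8 and 63.5 CPM at P14 and 73.3 and 66.3 CPM at P21. It rose from P1 to P14 by 0.84 on the log2 scale (SE 0.06, adjusted p = 1.16e-06, edgeR) with no overlap, and from P14 to P21 it changed by 0.14 (95% interval -0.01 to 0.29). Pcdhgc4, the isoform best known for keeping neurons alive, measured 116, 108 and 129 CPM at P1, 54.5, 52.2 and 52.3 CPM at P14 and 37.9 and 36.7 CPM at P21. It fell in both steps, by P14 (-1.18, SE 0.06, adjusted p = 1.45e-07) and by P21 (-0.45, SE 0.07, adjusted p = 0.00138). Pcdhgc5 was much lower, at 6.06, 5.92 and 5.78 CPM at P1, 3.61, 3.8 and 4.02 CPM at P14 and 2.898 and 3.74 CPM at P21 (-0.67 from P1 to P14, adjusted p = 0.00273).

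The order of the C-type gamma genes thus turned over. Per unique exon length, Pcdhgc4 stood at 33.9 CPM per kb and Pcdhgc3 at 19.7 at P1, against 10.7 and 38.3 at P21. Pcdhgc3 took 7.57% ± 0.545 of the gamma counts at P1 (SD, n = 3), 21.2% ± 0.416 at P14 (n = 3) and 21.9% ± 1.88 at P21 (n = 2), and Pcdhgc4 took 24.8% ± 1.55, 17.1% ± 0.367 and 11.7% ± 0.426. The antisense gene BC037039, which overlaps Pcdhgc3, had 342 counts over all 13 libraries. Markers of many other cell types rose beside Pcdhgc3 from P1 to P14, with 20 of 20 Müller glia, 8 of 9 astrocyte, 18 of 18 bipolar, 18 of 18 microglia, 14 of 14 endothelial, 12 of 12 pericyte, 19 of 20 rod and 11 of 12 cone markers higher, and their part in its rise was not tested.

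**Figure D3:**
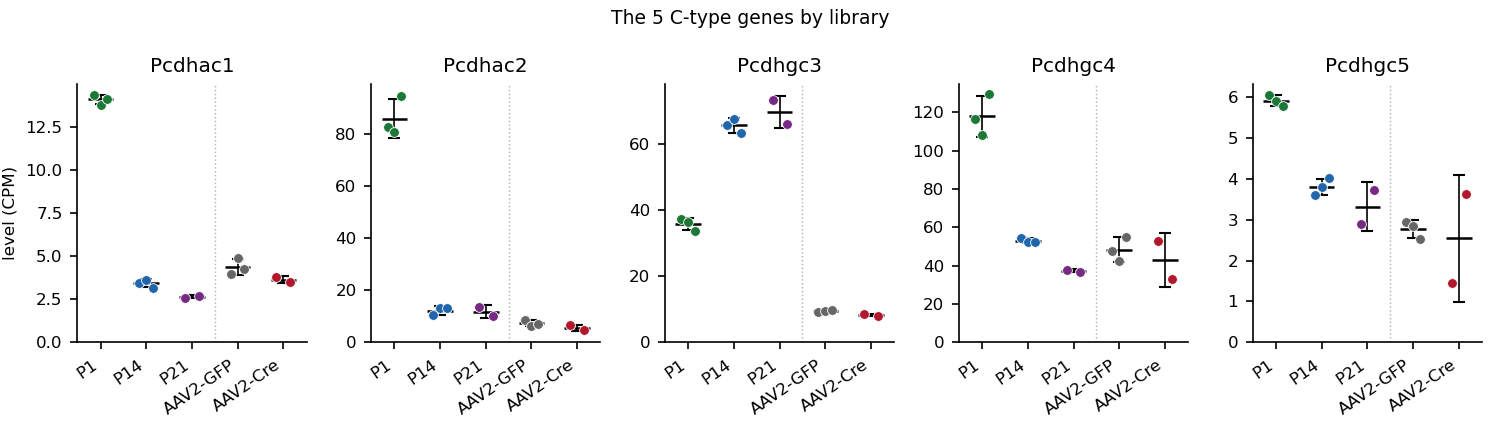
Level of the 5 C-type genes in CPM (y axes, each from 0) in each library (points) of the 5 groups (x axis), with the group mean (horizontal bar) and SD (error bar). Pcdhgc3 is the gene whose P14 and P21 libraries (63.5 to 73.3 CPM) lie above its P1 libraries (33.9 to 37.3 CPM), and in the injury libraries it lies below all of them.

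Over the whole interval from P1 to P21, 31 of 57 clustered protocadherins were lower and 9 higher (edgeR), where 33.6% of all genes tested were lower and 34.1% higher. This comparison shares its libraries with the other 2 and is given beside them. The alpha cluster had 12 of 14 lower (median log2 fold change -2.75), the beta cluster 7 of 22 higher and 6 lower (median 0.12) and the gamma cluster 2 of 21 higher and 13 lower (median -0.46). Pcdha1 had the largest fall, with a log2 fold change of -3.73 (SE 0.33, adjusted p = 4.33e-06). The beta genes higher at P21 than at P1 were Pcdhb6, Pcdhb8, Pcdhb9, Pcdhb11, Pcdhb12, Pcdhb14 and Pcdhb16, with log2 fold changes from 0.33 to 0.86. Among the genes given per library, the calls of this comparison that were lost when 1 library was left out were those of Pcdhgb7 (without P1 replicate 1, P1 replicate 2, P14 replicate 1 or P21 replicate 1, adjusted p from 0.0538 to 0.155), Pcdhb2 (P1 replicate 1 or P21 replicate 2, adjusted p = 0.0515 and 0.1096), Pcdhb9 and Pcdhgb2 (P21 replicate 2, adjusted p = 0.0721 and 0.0591) and Pcdhga10 (P21 replicate 1, adjusted p = 0.0616). Pcdha8 and Pcdhb1 gained a call without P1 replicate 1 or P21 replicate 1, and Pcdhgb4 without P21 replicate 1 (edgeR). Over all 57 genes, leaving out 1 library gave from 6 to 11 higher.

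The mix of genes in each cluster was described by the rank of their levels per unique exon length. Across 20 gamma genes, Spearman's rank correlation between the mean levels at P1 and P21 was 0.92, across 22 beta genes 0.67 and across 13 alpha genes 0.67. These are correlations across genes of the same libraries, and genes are not independent replicates. The effective number of genes, the exponential of the Shannon entropy of their count shares, was 8.95 ± 0.123 for alpha at P1, 18.004 ± 0.0922 for beta and 14.3 ± 0.545 for gamma (SD, n = 3), and 9.63 ± 0.0137, 17.9 ± 0.0362 and 15.3 ± 0.672 at P21 (n = 2). The bulk libraries average over many cells, so these numbers do not describe single neurons.

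In the injury libraries the alpha cluster had another leading gene, while Pcdhb9 led the beta genes per unique exon length in all 5 groups. The alpha sum was 62.1, 56.6 and 53.9 CPM in AAV2-GFP and 57.4 and 47.6 CPM in AAV2-Cre. Pcdha9 led the alpha genes per unique exon length (4.78 CPM per kb in AAV2-GFP), with 12.1, 14.6 and 8.91 CPM in AAV2-GFP and 14.4 and 7.29 CPM in AAV2-Cre. Pcdha8 measured 2.801, 7.32 and 5.12 CPM in AAV2-GFP and 4.07 and 3.58 CPM in AAV2-Cre and lay above every P1, P14 and P21 library in all 5, whereas 11 of 14 alpha genes lay below every P1 library. Of all genes that passed the filter over the 13 libraries, 22.5% lay above all development libraries in this way and 36% below every P1 library. Pcdhac2 took 12.7% ± 1.34 of the alpha counts in AAV2-GFP (SD, n = 3) against 29.03% ± 2.41 at P21 (n = 2). Across 13 alpha genes, Spearman's rank correlation between AAV2-GFP and P1 was -0.01, and between AAV2-GFP and P21 it was 0.53.

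**Figure D4:**
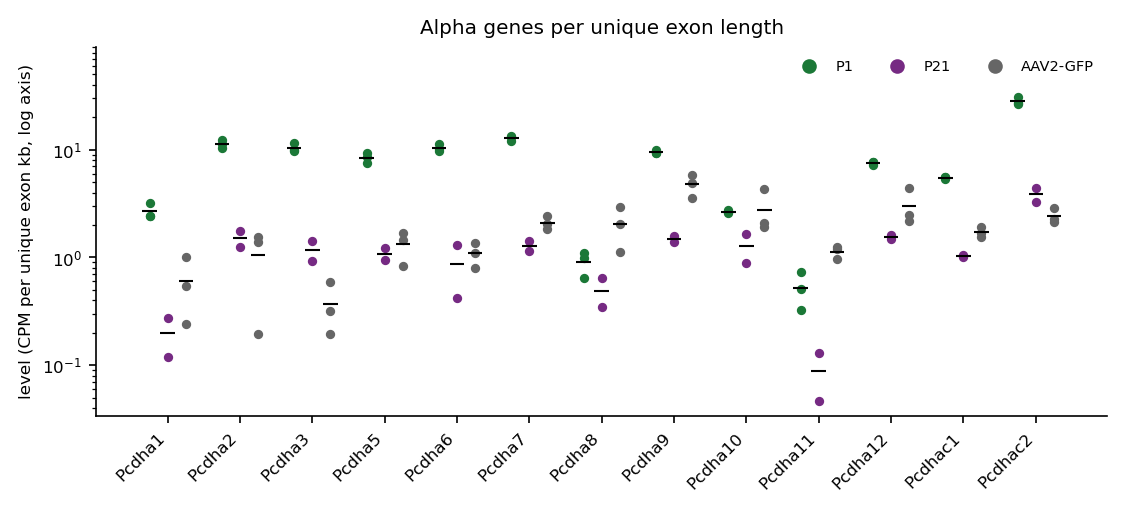
Level of 13 alpha genes (x axis) in CPM per kb of exon found in no other gene (y axis, log scale), in each library (points) of P1, P21 and AAV2-GFP, with group means (bars). The P1 mean is the highest for all genes but Pcdha8, Pcdha10 and Pcdha11, and Pcdha9 leads in AAV2-GFP, where Pcdhac2 leads at P1 and P21.

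Pcdhb9 stood above the rest of the beta cluster in the injury libraries, with 99.7, 66.7 and 86.03 CPM in AAV2-GFP and 94.5 and 83.6 CPM in AAV2-Cre. These 5 values lay above every development library, as in 22.5% of all genes, and Pcdhb9 took 22.2% ± 1.93 of the beta counts in AAV2-GFP (SD, n = 3) against 10.1% ± 0.226 at P21 (n = 2). Pcdhgc3 was low there, with 9.12, 9.61 and 9.81 CPM in AAV2-GFP and 8.496 and 7.93 CPM in AAV2-Cre, below every development library, as in 24.5% of all genes. Pcdhgc4 measured 47.6, 42.1 and 55.1 CPM in AAV2-GFP and 52.8 and 32.8 CPM in AAV2-Cre. The gamma sum, at 207, 193 and 228 CPM in AAV2-GFP, lay below all development libraries. No gamma gene lay above every P1 library in all 5 injury libraries, where 30% of all genes did. Age, injury, virus and dataset differ together here, the rod, cone, microglia, B cell and T cell marker sums of each injury library lay above those of every development library, and no test was made across the datasets.

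Between AAV2-Cre and AAV2-GFP no clustered protocadherin passed the test. Of 57 genes 54 were tested and 0 were called by edgeR, as by DESeq2 (0) and limma-voom (0). Of all genes tested by edgeR, 1.33% were higher and 0.294% were lower. An unadjusted p under 0.05 (edgeR) was found for 1 of the 54, beside 3029 of the 18395 genes tested. The median log2 fold change of the 54 was -0.17, against -0.03 over all genes tested, and it was 0.0031 without AAV2-Cre replicate 2 and -0.09 without AAV2-GFP replicate 3. With all 5 libraries it was -0.19 for the 13 alpha genes tested, 0.05 for the 21 beta genes and -0.23 for the 20 gamma genes, of which 18 had a negative value, where 52.4% of all genes tested did. The gamma sum was 205 and 147 CPM in AAV2-Cre and 207, 193 and 228 CPM in AAV2-GFP, so that 1 AAV2-Cre library lay within the AAV2-GFP range. Pcdha4, Pcdhb1 and Pcdhga10 did not reach the low-count filter. The spread was wider here, with a biological coefficient of variation of 0.340 against 0.109 in the development fit.

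Pcdhga12 had the smallest p, with 12.4, 13.2 and 14.4 CPM in AAV2-GFP and 6.97 and 8.31 CPM in AAV2-Cre (-0.85, SE 0.28, adjusted p = 0.183, edgeR), and its libraries did not overlap. It was called lower when all 13 libraries were fitted together (adjusted p = 0.0164). Pcdha5 had the most negative estimate, with 1.94, 3.93 and 3.43 CPM in AAV2-GFP and 0.654 and 2.17 CPM in AAV2-Cre (-1.17, 95% interval -2.79 to 0.45), and its libraries overlapped. Pcdhgb2 had the most positive, with 5.03, 7.32 and 2.41 CPM in AAV2-GFP and 10.8 and 6.201 CPM in AAV2-Cre (0.74, 95% interval -0.41 to 1.90).

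Other members at the ends of their groups were near these. Pcdhb7 measured 22.98, 13.1 and 21.4 CPM in AAV2-GFP and 29.9 and 28.4 CPM in AAV2-Cre (0.57, 95% interval -0.03 to 1.17). Pcdhb2 measured 3.59, 5.62 and 6.26 CPM in AAV2-GFP and 2.54 and 3.39 CPM in AAV2-Cre (-0.84, -1.91 to 0.22). Pcdhga1 measured 3.45, 2.902 and 2.35 CPM in AAV2-GFP and 2.11 and 0.767 CPM in AAV2-Cre (-1.05, -2.56 to 0.46). For each of these 3 genes the AAV2-Cre libraries did not overlap the AAV2-GFP libraries. Among the clustered protocadherins 1 of 14 alpha, 4 of 22 beta and 6 of 21 gamma genes had no overlap, where 35.1% of all genes tested had none. For the best measured genes the intervals were narrower, as for Pcdhb9 (0.05, -0.38 to 0.47), Pcdhb17 (-0.08, -0.52 to 0.37) and Pcdhgc4 (-0.21, -0.75 to 0.33).

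**Figure D5:**
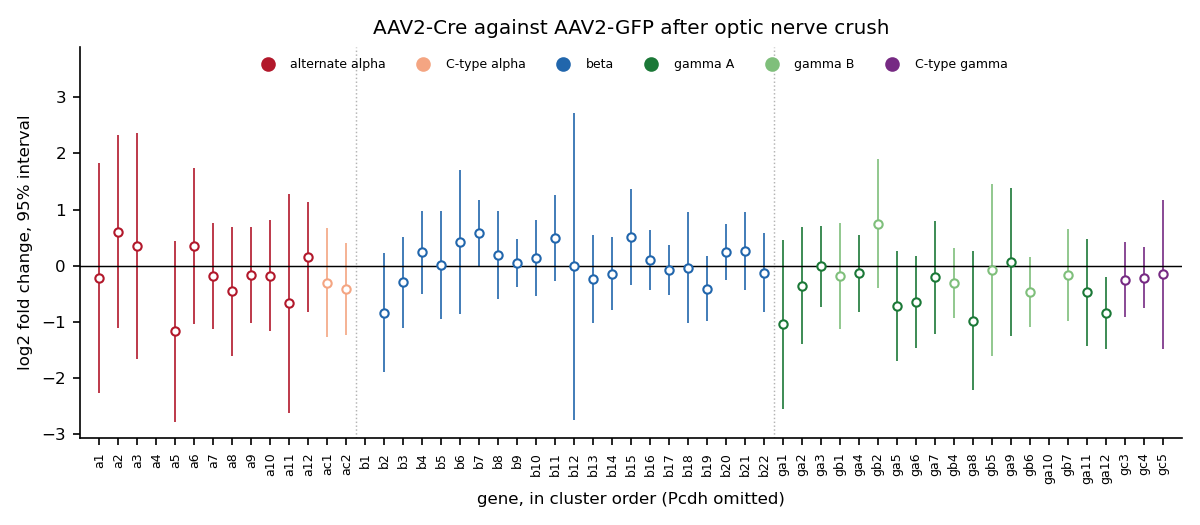
Log2 fold change of AAV2-Cre against AAV2-GFP (y axis) for each of the 54 tested genes in cluster order (x axis), with the 95% interval from edgeR. All points are open because none passed, and the interval lay wholly below 0 for Pcdhga12 alone.

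Genes that control the clusters or act with their proteins were counted from lists. Of 31 regulators of the clusters (CTCF, cohesin and its loaders, DNA methylation and heterochromatin genes), 18 were lower and 8 higher at P14 than at P1 (edgeR, median log2 fold change -0.24), where 33.6% of all genes were lower and 33.6% higher. At P21 against P14, 5 were lower and 5 higher (median 0.0044), near the 19.3% and 14.6% of all genes. Between AAV2-Cre and AAV2-GFP 0 passed, and 5 of the 31 had an unadjusted p under 0.05, beside 3029 of the 18395 genes tested. Wiz, a partner of the Ehmt1 and Ehmt2 histone methyltransferases, fell from 206 CPM ± 14.5 at P1 (SD, n = 3) to 92.1 CPM ± 2.09 at P14 (n = 3), a log2 fold change of -1.19 (SE 0.05, adjusted p = 4.73e-08). Rest, a repressor of neuronal genes, rose from 20.5 CPM ± 1.397 to 64.5 CPM ± 5.36 (1.62, adjusted p = 8.31e-08). Dnmt3a, a DNA methyltransferase, rose by P14 (0.73, adjusted p = 2.68e-07) and fell by P21 (-0.41, adjusted p = 0.000227). Trim28, a corepressor of zinc finger proteins, fell by P14 (-0.61, adjusted p = 1.00e-06).

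Of 30 partners and effectors (among them the focal adhesion kinases, the WAVE complex and the proteases that cut the proteins), 15 were lower and 10 higher at P14 than at P1 (edgeR, median log2 fold change -0.22), where all genes had 33.6% in each direction. At P21 against P14, 15 were lower and 7 higher (median -0.19), beside 19.3% and 14.6% of all genes. Marcksl1, an actin-binding protein kinase C substrate, fell from 833 CPM ± 70.5 at P1 (SD, n = 3) to 210.3 CPM ± 16.02 at P14 (n = 3) (-2.02, adjusted p = 3.39e-08). Prkca, the kinase itself and also a rod bipolar marker, rose from 102 CPM ± 7.01 to 609.9 CPM ± 25.1 (2.55, adjusted p = 3.36e-09), beside 18 of 18 bipolar markers higher at P14, a list that includes it. Ptk2b, one of the focal adhesion kinases that clustered protocadherins inhibit, rose from P14 to P21 (2.78, SE 0.25, adjusted p = 4.52e-05). Ptk2, another of these kinases, fell in the same step, from 119 to 74.7 CPM on average (-0.62, SE 0.06, adjusted p = 4.74e-05, edgeR). Between AAV2-Cre and AAV2-GFP, Prkca was the only 1 of the 30 called, at 64.95 CPM ± 13.9 in AAV2-Cre (SD, n = 2) and 121 CPM ± 5.97 in AAV2-GFP (n = 3), a log2 fold change of -0.94 (SE 0.18, adjusted p = 0.0469, edgeR). In the same comparison 2 of 18 bipolar markers were lower, and Prkca is 1 of these 2. Of all genes tested, 0.294% were lower and 1.33% higher.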

How the data were processed

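RNA was sequenced from 13 libraries of Thy1.2-sorted mouse retinal cells, which the study calls enriched RGCs. The deposited values were raw read counts per gene, which the authors made with Trimmomatic 0.39, FastQC 0.11.9, HISAT2 2.2.1 and featureCounts of Subread 2.0.3 on GRCm38. The annotation release is not given in the sources used here, and exon lengths and symbols came from GENCODE M21. Reads in exons shared between genes may be uncounted, which lowers alpha and gamma counts.

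Counts were tested with the quasi-likelihood test of edgeR 4.0.16 (R 4.3.3) with TMM scaling and filterByExpr, without covariates, in 1 fit of the 8 development libraries and 1 of the 5 injury libraries. Genes were called at a Benjamini-Hochberg adjusted p under 0.05 over all genes tested. CPM values used TMM factors over all 13 libraries. The fits were checked on simulated counts. Alternatives were DESeq2 1.42.0, limma-voom (limma 3.58.1), library size scaling, other filters, a log2 fold limit of 1, a replicate block, a joint fit and leaving out each library.

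Values per library were given for the 5 C-type genes and, in each other group, for the 2 members with the highest mean CPM and those with the largest log2 fold change in each direction per comparison. Of each pathway list, at most 4 genes with the smallest p per comparison were named. Other members were named after their values were seen. The members and lists were chosen with earlier results of these data known. One gene that the annotation and RefSeq name differently is given as Pcdha10, after RefSeq.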

Additional observations from a re-analysis of the deposited data

How the results depend on the processing

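Counts of called clustered protocadherins moved most with a fold limit and with a joint fit. With a log2 fold change beyond 1 also required, 1 was higher and 18 lower at P14 against P1, 0 were higher at P21 against P14, and 0 were higher and 18 lower at P21 against P1. With all 13 libraries in 1 fit, 1 was higher and 28 lower at P14 against P1, 2 were higher and 0 lower at P21 against P14, 3 were higher and 22 lower at P21 against P1, and 1, Pcdhga12, was lower in AAV2-Cre against AAV2-GFP. Scaling by library size alone moved the median of all genes from -0.01 to 0.11 at P14 against P1, the median of the clustered protocadherins to -0.54, and their count of higher genes to 5. Leaving out 1 library gave 2 to 4 higher and 37 to 42 lower at P14 against P1, 11 to 16 higher and 2 to 3 lower at P21 against P14, 6 to 11 higher and 29 to 32 lower at P21 against P1, and 0 between AAV2-Cre and AAV2-GFP. DESeq2 gave 3 higher and 42 lower, 13 and 3, and 9 and 31 in the 3 development comparisons. Replicate numbers did not pair the libraries (correlations of same-numbered deviations from -0.0413 to 0.0168). With a replicate block the counts were 2 higher and 42 lower, 13 and 3, and 8 and 29 in the development comparisons, and 0 and 0 in the injury comparison. No named gene turned direction past the threshold under an alternative. Pcdha4, Pcdha11, Pcdhb1 and Pcdhga10 rested on fewer than 60 reads in every library.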

Other observations

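Other adhesion and self-recognition genes of the sorted cells were counted from lists in the same fits. Of all genes tested, 33.6% were lower and 33.6% higher at P14 against P1, and 19.3% and 14.6% at P21 against P14, and the counts that follow stand beside these shares. Of 12 non-clustered protocadherins, single genes outside the clusters, 8 were lower and 4 higher at P14 than at P1 (edgeR, median log2 fold change -0.76), and 8 lower and 3 higher at P21 than at P14 (median -0.49). Pcdh11x fell from 46.2 CPM ± 1.67 at P1 (SD, n = 3) to 8.06 CPM ± 0.9901 at P14 (n = 3), a log2 fold change of -2.55 (SE 0.09, adjusted p = 1.63e-08). Pcdh10 fell from 163 CPM ± 10.9 to 40.9 CPM ± 2.11 (-2.02, adjusted p = 1.11e-08). Pcdh19 fell by P14 (-1.64, adjusted p = 1.54e-07). Between AAV2-Cre and AAV2-GFP, 11 of the 12 were tested and Pcdh15, known from hair cells and photoreceptors, was called lower, at 91.2 CPM ± 4.44 in AAV2-Cre (SD, n = 2) and 161 CPM ± 7.64 in AAV2-GFP (n = 3) (-0.86, SE 0.15, adjusted p = 0.0319). Rod markers had a median of -0.61 in the same comparison with 0 of 20 called, and their part in the Pcdh15 result was not tested.

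Of 18 classical and related cadherins, 9 were lower and 8 higher at P14 than at P1 (edgeR, median log2 fold change -0.28). Cdh4 (R-cadherin) fell from 289 CPM ± 16.6 at P1 (SD, n = 3) to 67.2 CPM ± 3.31 at P14 (n = 3), and Cdh5, the cadherin of endothelial cells, rose from 1.03 CPM ± 0.283 to 24.3 CPM ± 2.28, beside 14 of 14 endothelial markers higher, a list that includes it. Of 19 other genes of self-avoidance and cell spacing, 7 were lower and 7 higher (median 0.07), close to the shares of all genes. Dscam, an immunoglobulin family receptor of self-avoidance, fell from 284 CPM ± 21.4 to 54.6 CPM ± 0.8605 (-2.41, SE 0.06, adjusted p = 4.42e-09). Fat3, an atypical cadherin that shapes amacrine dendrites, fell by P14 (-2.04, adjusted p = 1.09e-08) and rose by P21 (1.17, adjusted p = 9.99e-06). Celsr3, an atypical cadherin of axon tracts, fell by P14 (-1.72, adjusted p = 1.18e-08). At P21 against P14, 11 cadherins were lower and 3 higher, and 7 of the self-avoidance genes were lower and 8 higher. None of the cadherins or self-avoidance genes tested was called between AAV2-Cre and AAV2-GFP (17 and 18 tested, edgeR). At an unadjusted p under 0.05 there were 3 and 3, beside 3029 of the 18395 genes tested.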
